A study of Mus musculus with 7 samples.

Results

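The 10 genes described here belong to the leukaemia inhibitory factor and STAT3 axis that drives involution of the mammary gland, and were followed in single cells of mouse mammary tumors. They were taken by symbol (Lif, Osmr, Lifr, Il6st, Stat3, Socs3, Cebpb, Cebpd, Bcl3 and Lrg1), and each was found once among the 31053 genes counted. Cells of 7 libraries were used. BRCA1-null tumors (libraries A and B) arose in Brca1 F/F, Trp53 F/F mice carrying Cre under the K14 promoter, Neu tumors (A and B) arose in MMTV-Neu mice of a strain crossed with floxed FIP200 mice (Neu A is stated to carry the floxed alleles without Cre), and both models were FVB/NJ. PyMT tumors (A and B) were FVB/NJ transplants of FF99WT, 1 cell line from an MMTV-PyMT tumor with floxed FIP200 alleles and no Cre, so that both libraries share a single origin. The 4T1 library came from a BALB/C transplant of the GFP-marked 4T1 carcinoma line and has no replicate. None of the tumors was treated, all were from adult mice, and the suspensions were sorted for CD24 and against CD31, CD45 and Ter119. Of 13745 barcodes, 12168 cells with at least 1000 unique molecular identifiers (UMIs), 500 genes and under 20% mitochondrial UMIs were kept, from 245 in BRCA1-null A to 2308 in Neu A.

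Lif and oncostatin M are cytokines that signal through receptor pairs: Lifr or Osmr binds the ligand and Il6st, also called gp130, is the shared signalling chain. Receptor-bound kinases phosphorylate the transcription factor Stat3, which is switched on in the alveoli when milk is no longer removed and is needed for the death of the secretory cells. Socs3 is a feedback inhibitor of gp130 that Stat3 induces, Cebpb and Cebpd are C/EBP transcription factors, Bcl3 is a nuclear partner of NF-kB, and Lrg1 is a secreted acute phase protein. RNA counts do not measure Stat3 phosphorylation. On GRCm38 (GENCODE coordinates) Lif lies at chr11:4257557-4272514, Osmr at chr15:6813577-6874969, Lifr at chr15:7090614-7197489, Il6st at chr13:112464070-112510086 and Stat3 at chr11:100885098-100939540. Socs3 lies at chr11:117966079-117970047, Cebpb at chr2:167688915-167690418, Cebpd at chr16:15887286-15891031, Bcl3 at chr7:19808462-19822770 and Lrg1 at chr17:56119678-56122001.

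Depth ran from 5729799 total UMIs in BRCA1-null A to 38028054 in PyMT B, and the median cell held 8609 to 19410.5 UMIs. BRCA1-null libraries differed from the others in markers of other cell types, and whether these came from other cells or from mesenchymal tumor cells, which the study describes in this model, was not tested. The 5 fibroblast markers summed to 301 and 1291 CPM (the UMIs of a gene per 1000000 UMIs of the library) in BRCA1-null A and B against 1.49 to 24.5 CPM in the other 5 libraries, and the 6 epithelial markers summed to 1312 CPM in BRCA1-null A against 6131 to 18590 CPM elsewhere. Pericyte markers summed to 243 and 290 CPM in BRCA1-null against 3.66 to 11.98 CPM elsewhere, and endothelial markers to 27.8 and 5.69 CPM against 0.743 to 1.55 CPM. The immune list summed to 3.92 to 464 CPM in the 3 FVB/NJ models and to 3522 CPM in 4T1, of which Cd74 made up 3517 CPM, and the pan-leukocyte gene Ptprc was at most 0.847 CPM in every library. The myeloid genes Tyrobp and Lyz2 ran the other way from Cd74: they were at 6.63 and 10.2 CPM and at 15.2 and 18.4 CPM in BRCA1-null, higher than in PyMT by 5.39 and 5.29 (log2, edgeR adjusted p = 0.0050 and 0.0126). Trp53 was at 39.1 and 25.1 CPM and Brca1 at 9.68 and 2.81 CPM in BRCA1-null, against 44.6 to 91.1 CPM and 0.276 to 1.35 CPM in PyMT and Neu. Counts of 3′ ends do not check a deletion inside these genes.

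The stretch before the RefSeq start of Socs3 is shown because Socs3 was the gene used below to divide the cells and the only 1 of 9 genes with a RefSeq promoter entry whose 250 bases before the start held the STAT motif TTCNNNGAA (the motif reads the same on both strands). The sequence, from RefSeq on GRCm38.p6, runs 5′ to 3′ on the minus strand over chr11:117969452-117969616 and leaves out the part of the window that overlaps a GENCODE exon. It lies within the longer GENCODE span of Socs3 given above, and is upstream of the RefSeq start only. Capitals mark the motif.
Socs3: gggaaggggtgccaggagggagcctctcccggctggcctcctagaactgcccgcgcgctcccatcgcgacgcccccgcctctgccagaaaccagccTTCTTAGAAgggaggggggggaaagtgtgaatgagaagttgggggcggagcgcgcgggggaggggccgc
The match starts 154 bases before the RefSeq start. The motif was present in 7.02% of all 32851 promoter windows of this length. The C/EBP letters TTGCNNAA, searched on both strands, were in none of the 9 genes' windows and in 9.56% of all windows. Cebpd had no entry.

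The first question was whether the axis was expressed at different levels in the tumor models. Of the 10 genes, Lrg1 and Lif differed between models beyond the spread between libraries, and both were highest in PyMT tumors. Both PyMT libraries came from a single cell line, so their spread is not that between independent tumors. UMIs were summed over the cells of each library, and the 6 libraries of the 3 models were compared with edgeR's quasi-likelihood test with Benjamini-Hochberg adjustment over 13950 genes. In such sums, fewer cells that express a gene and less RNA per cell cannot be told apart. All levels are in CPM, and the plot of levels by library shows them together.

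**Figure D1:**
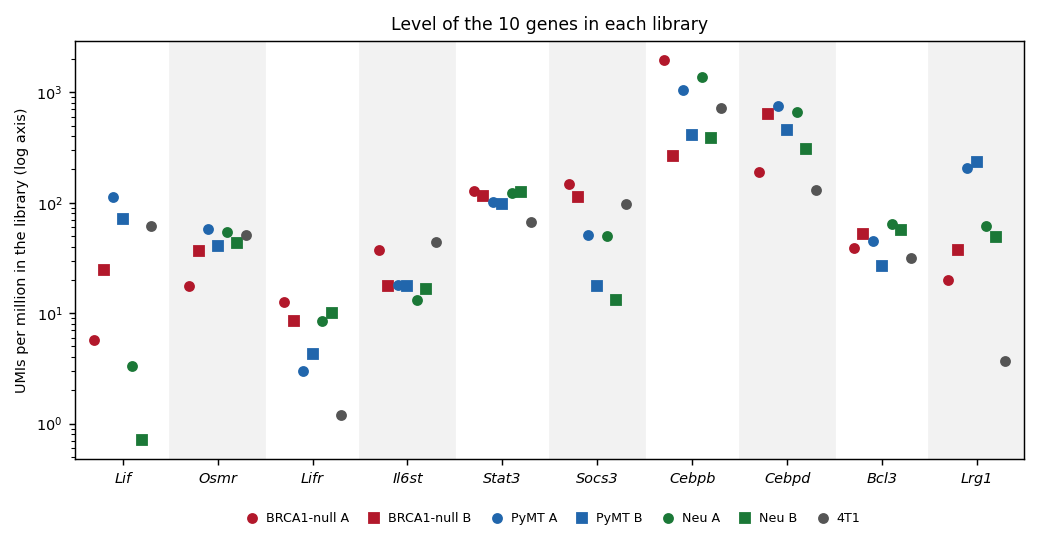
Level of each of the 10 genes (CPM over all cells of a library, log axis) in the 7 libraries, with 1 point per library, colors for the models, circles for libraries A and 4T1 and squares for libraries B. Lif and Lrg1 were higher in both PyMT libraries than in any BRCA1-null or Neu library, Stat3 lay between 66.7 and 127 in all 7, and Cebpb was lower in library B than in library A of every model.

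The ligand Lif was at 112 and 70.6 CPM in PyMT A and B, 5.74 and 24.4 CPM in BRCA1-null, 3.34 and 0.713 CPM in Neu and 61.9 CPM in 4T1. PyMT libraries did not overlap those of either other model. PyMT and 4T1 tumors were transplants of cell lines, while BRCA1-null and Neu tumors were spontaneous. For Lif, model and transplantation of a line cannot be told apart. Lif was higher in PyMT than in Neu by 5.73 (log2, SE 0.99, n = 2 libraries each, edgeR adjusted p = 0.0135), whereas BRCA1-null differed from PyMT by -2.86 (adjusted p = 0.0546) and from Neu by 2.86 (adjusted p = 0.0506), neither past the threshold of 0.05. These 2 differences passed with DESeq2 (adjusted p = 0.0033 and 0.0036) and in edgeR on cells thinned to 3000 UMIs (0.0418 and 0.0135). They did not pass in edgeR with the replicate block, with DESeq2 size factors or in cells with epithelial markers. To compare shares of cells, each cell was thinned at random to 3000 UMIs. Lif was then detected in 21.1% of PyMT A and 15.4% of PyMT B cells, in 0.723% of Neu A cells (95% exact Clopper-Pearson interval 0.405 to 1.19, which covers counting error only) and in 4 of 1948 Neu B cells, and without thinning in 40% and 41.4% of PyMT cells and 2.25% and 0.951% of Neu cells. No population that should lack these genes was set apart, so the share that free RNA gives was not measured.

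Among the receptors, Osmr was at 17.6 and 36.5 CPM in BRCA1-null, 57.7 and 40.9 CPM in PyMT, 54.3 and 43.1 CPM in Neu and 50.5 CPM in 4T1. BRCA1-null libraries were the lowest, without a call (adjusted p = 0.0979 against PyMT and 0.129 against Neu). Lifr was low throughout, at 12.7 and 8.57 CPM in BRCA1-null, 2.98 and 4.30 CPM in PyMT, 8.54 and 10.0 CPM in Neu and 1.19 CPM in 4T1. PyMT did not overlap BRCA1-null or Neu for Lifr, yet neither difference passed with edgeR (adjusted p = 0.0708 and 0.0720). With DESeq2 both passed, at 1.14 for BRCA1-null against PyMT and -1.16 for PyMT against Neu (log2, adjusted p = 0.0390 and 0.0358). The shared chain Il6st was at 37.3 and 17.8 CPM in BRCA1-null, 18.2 and 17.6 CPM in PyMT, 13.1 and 16.7 CPM in Neu and 44.1 CPM in 4T1, where the 4T1 library was the highest and PyMT overlapped BRCA1-null.

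Stat3 itself was at 127 and 116 CPM in BRCA1-null, 102 and 97.2 CPM in PyMT, 121 and 126 CPM in Neu and 66.7 CPM in 4T1. Its fitted differences between models lay between -0.24 and -0.09 on the log2 scale with SEs of 0.25, and none passed the test (adjusted p from 0.486 to 0.827). The value for BRCA1-null against PyMT, -0.09, had the opposite direction to the CPM, which were higher for both BRCA1-null libraries. The fit used TMM scaling and the CPM did not. TMM factors of the BRCA1-null libraries (1.06 to 1.23) were larger than those of the PyMT libraries (0.881 to 0.888). The direction of this Stat3 difference was thus not resolved. Socs3, the feedback inhibitor, was at 149 and 112 CPM in BRCA1-null, 50.7 and 17.5 CPM in PyMT, 50.3 and 13.2 CPM in Neu and 96.9 CPM in 4T1. BRCA1-null did not overlap PyMT or Neu, and was higher by 1.55 (log2, SE 0.68, adjusted p = 0.144) and by 1.87 (SE 0.68, adjusted p = 0.0803). With the replicate letter, which marks the sequencing batch, as a block in the edgeR fit, Socs3 passed in both, by 1.82 (adjusted p = 0.0382) and by 2.17 (adjusted p = 0.0209). The fibroblast values given above also separated BRCA1-null from the other models, and their part in the Socs3 level was not tested.

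Cebpb, a C/EBP factor, differed between the libraries of every model. It was at 1970 and 266 CPM in BRCA1-null A and B, 1045 and 410 CPM in PyMT, 1363 and 383 CPM in Neu and 723 CPM in 4T1. Within each model library B was lower than library A, with log2 differences after TMM scaling of -2.67 (BRCA1-null), -1.36 (PyMT) and -1.65 (Neu). Of the 13950 genes, 50 (0.358%) were lower by at least 1 in library B of all 3 models, and Cebpb was the only one of the 10 members among them. In batch A the order was BRCA1-null, Neu, PyMT, and in batch B PyMT, Neu, BRCA1-null. The same differences for Socs3 were -0.20, -1.55 and -1.75. Libraries A and B differ in sequencing batch, tumor and, per the processing notes, Cell Ranger version, which cannot be told apart. Cebpd was at 191 and 636 CPM in BRCA1-null, 747 and 458 CPM in PyMT, 669 and 304 CPM in Neu and 131 CPM in 4T1, and the 3 models overlapped.

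**Figure D2:**
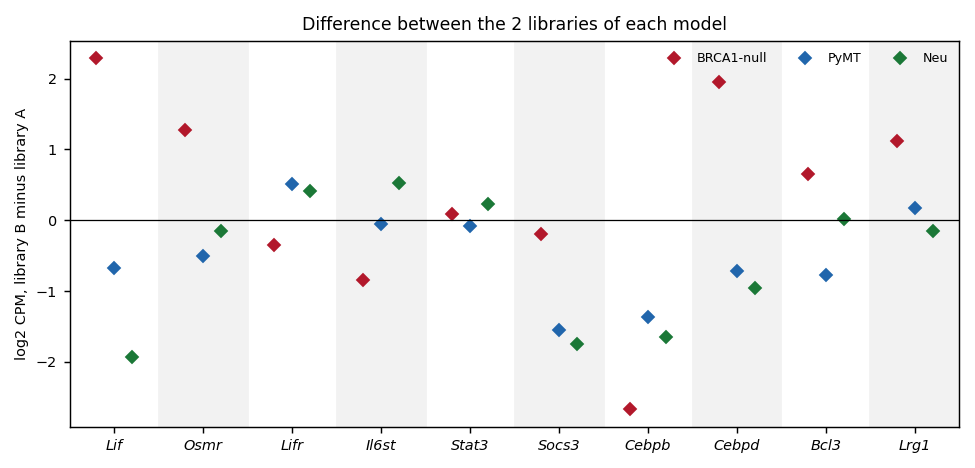
Difference between library B and library A (log2 CPM after TMM scaling) for the 10 genes in the 3 models, with 1 diamond per model and a line at 0. Cebpb lies at -1.36 or lower in all 3 models, while Stat3 stays between -0.08 and 0.23.

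Bcl3 was at 38.7 and 52.3 CPM in BRCA1-null, 45.1 and 26.7 CPM in PyMT, 63.5 and 56.7 CPM in Neu and 31.9 CPM in 4T1. Both Neu libraries were above all others, and the log2 difference from Neu was -0.58 in both BRCA1-null and PyMT (SE 0.36, edgeR adjusted p = 0.260 and 0.298), so the difference was not resolved. Lrg1 was at 206 and 235 CPM in PyMT, 61.6 and 49.0 CPM in Neu, 19.9 and 37.3 CPM in BRCA1-null and 3.66 CPM in 4T1, and no 2 models overlapped. It was lower in BRCA1-null than in PyMT (log2 difference -3.27, SE 0.42, adjusted p = 0.0057) and higher in PyMT than in Neu by 2.16 (SE 0.40, adjusted p = 0.0159), and BRCA1-null differed from Neu by -1.11 (adjusted p = 0.0722). Cells with an Lrg1 UMI at 3000 UMIs made up 32.8% and 34.6% of PyMT, 9.11% and 6.52% of Neu, 5.86% and 5.52% of BRCA1-null and 0.89% of 4T1 cells.

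The counts of members called were read against all genes. Against PyMT, 0 of the 10 genes were higher and 1 was lower in BRCA1-null, where 14.5% and 7.94% of all genes tested were called higher and lower. Against Neu, 0 were called in either direction in BRCA1-null by edgeR, where 16.3% and 12.8% of genes were called, although 3 had an unadjusted p under 0.05 and DESeq2 called 2 higher (Lif and Socs3) and 1 lower (Lrg1). In PyMT against Neu 2 of 10 were higher and 0 lower, where 7.5% and 9.38% of genes were called. The median log2 difference of the 10 genes was -0.04, -0.15 and 0.25 in the 3 comparisons, and that of all genes 0.11, 0.11 and -0.06. Leaving out any 1 of the PyMT or Neu libraries ended both calls of PyMT against Neu (lowest adjusted p 0.0604 for Lif and 0.0852 for Lrg1, with the lone library assumed to vary like the other models), and without BRCA1-null B 4 genes (Lif, Osmr, Cebpd and Lrg1) were lower than in PyMT and 2 (Osmr and Lrg1) lower than in Neu. Without PyMT B the Lrg1 difference between BRCA1-null and PyMT had adjusted p = 0.0502.

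Other genes of the pathway were described by list, and no list was tested as a set. In BRCA1-null against PyMT 14.5% of all genes tested were called higher and 7.94% lower, and against Neu 16.3% and 12.8%. In PyMT against Neu these shares were 7.5% and 9.38%. Of 10 cytokine ligands 5 could be tested, and 1 was higher and 0 lower in PyMT against Neu. Il6, an acute inflammatory ligand of gp130, was at 3.76 and 71.3 CPM in BRCA1-null and at most 0.345 CPM in PyMT and Neu, higher by 7.08 and 7.90 (log2, adjusted p = 0.0230 and 0.0152); Ctf1, which signals through Lifr, was lower in BRCA1-null in both comparisons (log2 -1.44 and -1.68, adjusted p = 0.0284 and 0.0147), and Il11 was higher than in Neu by 5.18 (adjusted p = 0.0107). Clcf1, another gp130 ligand, was the 1 ligand called between PyMT and Neu, higher by 4.95 in PyMT (adjusted p = 0.0147).

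Of 10 partner receptors and kinases tested, Stat5a and Stat5b, which carry the prolactin signal of the lactating cell, were lower in PyMT than in Neu (log2 -3.72 and -2.18, adjusted p = 0.0051 and 0.0087), as was Il6ra (-3.55, adjusted p = 0.0156), and none was higher. In BRCA1-null 2 of the 10 were higher and 4 lower than in Neu, with Stat5b (-1.84, adjusted p = 0.0094), Il10rb (-2.32, adjusted p = 0.0112) and Stat5a (-1.98, adjusted p = 0.0137) among the lower ones. Against PyMT 2 were higher, Cntfr by 5.40 (adjusted p = 0.0175) and Stat5a by 1.74 (adjusted p = 0.0258), and Il10rb was lower.

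Of 9 negative regulators, Socs2 was at 1322 and 1004 CPM in Neu, 66.7 and 65.1 CPM in BRCA1-null and 31.7 and 31.7 CPM in PyMT. The Neu libraries stood far above the others, and Socs2 was lower than in Neu in BRCA1-null (log2 -4.34) and in PyMT (-5.03; adjusted p = 0.0015 and 0.0013). Socs1 ran the other way, higher than in Neu by 4.24 in BRCA1-null and 2.67 in PyMT (adjusted p = 0.0029 and 0.0124), and Ptpn2, a phosphatase of the pathway, was lower (-1.74 and -2.06, adjusted p = 0.0056 and 0.0057). In all, 1 regulator was higher and 3 lower in BRCA1-null against Neu (2 lower with DESeq2 size factors), 1 and 2 in PyMT against Neu, and 1 and 1 in BRCA1-null against PyMT, where Socs1 was higher by 1.57 (adjusted p = 0.0382) and Pias1 lower (-1.10, adjusted p = 0.0364).

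Of 16 immediate STAT3 targets, 5 were higher and 2 lower in BRCA1-null against PyMT, 5 and 2 against Neu, and 2 and 1 in PyMT against Neu. Timp1, an inhibitor of matrix proteases, was higher than in Neu by 6.27 in BRCA1-null and by 2.76 in PyMT (adjusted p = 0.0043 and 0.0407), and Myc by 1.22 and 1.44 (adjusted p = 0.0186 and 0.0171). Klf4 was higher in BRCA1-null than in Neu by 3.90 (adjusted p = 0.0164). Nfil3, a bZIP repressor, was higher in BRCA1-null than in PyMT by 2.58 and lower in PyMT than in Neu (log2 -2.19; adjusted p = 0.0069 and 0.0105), while Bcl2l1 and Ier3 were lower in BRCA1-null than in PyMT (-1.92 and -1.51, adjusted p = 0.0114 and 0.0178).

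Of 18 acute phase and involution genes tested, 1 was higher and 8 lower in BRCA1-null against PyMT, 4 and 7 against Neu, and 2 and 2 in PyMT against Neu, with medians of -1.01, -0.77 and 0.19. Lcn2, a siderophore-binding protein, was at 13866 and 13198 CPM in PyMT, 10475 and 9051 CPM in Neu and 1748 and 981 CPM in BRCA1-null. It was lower in BRCA1-null (log2 -3.71 and -3.07, adjusted p = 0.0031 and 0.0032), like Clu (-2.48 and -3.53, adjusted p = 0.0113 and 0.0035). Ltf, an iron-binding milk protein, was lower in BRCA1-null than in PyMT (-6.08, adjusted p = 0.0040) and higher in PyMT than in Neu by 7.47 (adjusted p = 0.0033), as was Spp1 by 7.39 (adjusted p = 0.0065). Pik3r1, a subunit of PI3 kinase that involution raises, was lower than in Neu in BRCA1-null (-3.44) and in PyMT (-2.84; adjusted p = 0.0023 and 0.0048).

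Of 10 NF-kB genes, the group in which Bcl3 acts, 0 were higher and 2 lower (Tnfrsf12a at -1.78 and Rela at -1.12, adjusted p = 0.0389 and 0.0421) in BRCA1-null against PyMT, 2 higher and 0 lower against Neu, and 4 higher and 0 lower in PyMT against Neu. Relb was higher than in Neu by 1.15 in BRCA1-null and by 1.97 in PyMT (adjusted p = 0.0344 and 0.0112), Nfkb2 by 1.23 and 1.74 (adjusted p = 0.0370 and 0.0200), and Tnfrsf12a, the TWEAK receptor, by 2.54 in PyMT (adjusted p = 0.0178). Of 4 other C/EBP factors tested, Cebpg was lower in BRCA1-null than in PyMT (log2 -1.56, adjusted p = 0.0344), Cebpa was higher than in Neu by 1.24 (adjusted p = 0.0479), and 0 were called in PyMT against Neu by edgeR, where 2 had an unadjusted p under 0.05 and their median was 1.06. Of 10 milk genes, 0 were higher and 3 lower in BRCA1-null than in PyMT, and 0 and 6 than in Neu. Csn3 was lower (-5.61 and -6.27, adjusted p = 0.0017 and 0.0013), and so was Lalba (-3.54 and -6.13, adjusted p = 0.0377 and 0.0093). Wap was lower than in PyMT (-6.12, adjusted p = 0.0264) and Csn1s2b lower than in Neu (-7.54, adjusted p = 0.0089). In PyMT 1 milk gene was higher and 3 lower than in Neu (Csn1s2b at -5.07, Csn1s2a at -5.93 and Csn1s1 at -3.89, adjusted p = 0.0247, 0.0299 and 0.0385). Of 9 immediate early genes, which tissue dissociation can raise, Dusp1 was higher in BRCA1-null than in Neu by 1.97 (adjusted p = 0.0394) and no other was called in any of the 3 comparisons by edgeR.

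The next question was whether the 10 genes rise and fall together from cell to cell within a tumor. All cells below were thinned to 3000 UMIs, so that the counts compared had equal depth, and Pearson's r was computed within each library on log2 of counts per 10000 plus 1. The cells of a library share its tumor, its dissociation and its free RNA, and the values of r are descriptive. Of the 45 pairs of members 39 had a mean r above 0 over the 7 libraries and 12 were above 0 in every library, but only 2 pairs reached a mean of 0.1. These counts moved with depth: with full counts 11 pairs reached 0.1 and 16 were above 0 in every library, and at 2000 UMIs 1 and 5 did. How often pairs of other genes reach the same marks was not measured, so these counts have no background. For scale, the median of a member's mean r over all genes compared lay between -0.0048 (Lrg1) and 0.0020 (Cebpb). At 3000 UMIs the pairs past 0.1 were the partners Cebpb and Cebpd (mean r 0.200, from 0.146 to 0.255) and Socs3 with Cebpd (mean 0.104, from 0.019 to 0.236). Cebpd also took part in the next 2 pairs, with Bcl3 (0.0941) and Stat3 (0.0933), each above 0 in 7 of 7 libraries, and in 5 of 7 at 2000 UMIs. In sparse counts values of this size are weak. The pair Lif and Lifr had a mean r of -0.0065, and Osmr with Lrg1 0.0457.

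**Figure D3:**
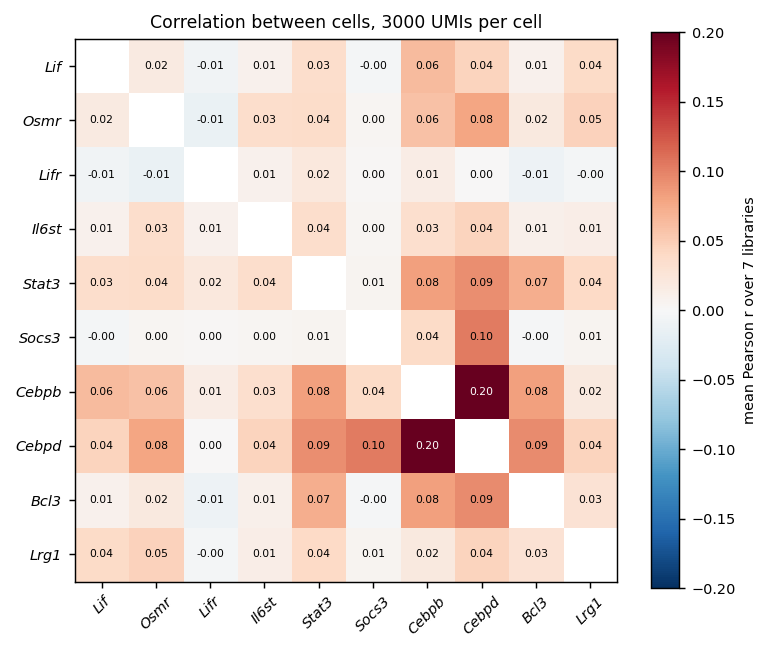
Mean Pearson r between cells for each pair of the 10 genes over the 7 libraries, with each cell thinned to 3000 UMIs (color scale from -0.2 to 0.2, value in each square). The Cebpb and Cebpd square, at 0.20, is the darkest. Squares of Lifr lie between -0.01 and 0.02, and those of Lif reach 0.06 with Cebpb.

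The spread between cells differed among the members. The ratio of variance to mean of UMIs per cell, which is 1 when a gene varies only by counting, was 0.94 to 1.26 in all 7 libraries for Stat3, Osmr, Lifr, Il6st and Bcl3. It reached 9.45 for Lrg1 in BRCA1-null B, 8.34 and 5.76 for Lrg1 in Neu A and B and 2.63 and 2.61 in PyMT A and B, and was 2.34 in BRCA1-null A and 1.43 in 4T1. Lrg1 counts were thus the most uneven in BRCA1-null B and the Neu libraries. Single cells held a large part of them: the highest cell had 39 of 269 Lrg1 UMIs in BRCA1-null B, 39 of 494 in Neu A and 18 of 308 in Neu B. It had 14 of 1172 in PyMT A, 12 of 1248 in PyMT B, 4 of 25 in BRCA1-null A and 3 of 18 in 4T1. The part of such cells in the ratios and in the Lrg1 values below was not tested. Socs3 was at 6.11 and 4.64 in BRCA1-null, 3.22 and 2.53 in Neu and 1.41 and 1.23 in PyMT. Cebpd ranged from 1.94 to 6.49 and Cebpb from 1.65 to 9.32, the last in BRCA1-null A. Lif ranged from 0.98 in BRCA1-null A to 2.88 in BRCA1-null B. The ratio also depends on the mean, and stays near 1 for a gene with few UMIs. The mean was 0.0042 to 0.059 UMIs per cell for Lifr and 7.19 for Cebpb in BRCA1-null A, so the ratio does not rank members of unlike level.

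The genes most like each member by mean r were sought among about 3045 genes detected in at least 5% of cells of every library. Socs3 was most like Fos (mean r 0.237, from 0.049 to 0.564), Zfp36 (0.205) and Junb (0.179). Lrg1 was most like Lcn2 (0.215), the iron carrier Trf (0.173) and Csn3 (0.135). Cebpb was most like Cebpd, Ier3 (0.178) and Junb (0.139), which it shared with Socs3, and Cebpd like Cebpb, Nfkbia (0.178) and the chemokine Cxcl1 (0.176). The 3 genes most like Bcl3 were all members, Cebpd, Cebpb and Stat3 (0.0732), whereas Stat3, Osmr and Il6st had no gene above a mean of 0.0957. Stat3 was most like Malat1 (0.0957), Cebpd and Pde4b (0.0930), and Osmr like Malat1 (0.0858), Cebpd and Errfi1 (0.0709). Il6st was most like Cd63 (0.0624), Ahnak (0.0590) and Emp1 (0.0573). For comparison, the 95th percentile of r over all genes was between 0.022 and 0.038 for the members ranked here. Lif and Lifr were detected in at least 5% of cells in 4 and 1 libraries and were not ranked.

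Cells were then divided by whether they held a Socs3 UMI, the inhibitor that gp130 signalling induces, and the 2 sums of each library were compared with edgeR with library as a block (7 libraries, 9888 genes, Socs3 left out). Cells with a Socs3 UMI made up 21.2% and 20.6% of BRCA1-null, 11.8% and 5.46% of PyMT, 10.3% and 3.70% of Neu and 20.1% of 4T1 cells. Before thinning they held fewer UMIs than cells without in BRCA1-null A and B (medians 16210 against 21617 and 10325.5 against 13446) and Neu B (13178.5 against 16070). The median was also lower in both PyMT libraries and Neu A, and higher in 4T1 (11413 against 11257.5). The part of this difference was not tested. Of the 9 other members 1, Cebpd, was higher and 0 lower, where 0.617% of all genes tested were higher and 0.192% lower. Cebpd in cells with and without a Socs3 UMI was at 362 and 192 CPM in BRCA1-null A, 1294 and 629 CPM in BRCA1-null B, 804 and 721 CPM in PyMT A, 653 and 463 CPM in PyMT B, 819 and 733 CPM in Neu A, 745 and 340 CPM in Neu B and 199 and 118 CPM in 4T1. It was higher in 7 of 7 libraries, by 0.55 overall (log2, SE 0.099, edgeR adjusted p = 0.0021). The call held without any 1 library; it was lost with the full counts of the same cells (0.57, adjusted p = 0.0751). Stat3 (0.05), Il6st (0.10) and Osmr (0.17) had adjusted p of 0.812 or more.

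Most immediate early genes were higher in cells with a Socs3 UMI. Of 9 tested, 8 were higher and 0 lower, with a median of 0.93 beside -0.07 for all genes. Fos was higher in 7 of 7 libraries, by 1.66 overall (SE 0.18, adjusted p = 3.9e-06), from 74.3 to 1135 CPM in BRCA1-null A, from 794 to 2415 CPM in BRCA1-null B, from 124 to 224 CPM in PyMT A, from 154 to 276 CPM in PyMT B, from 711 to 1790 CPM in Neu A, from 311 to 2116 CPM in Neu B and from 212 to 648 CPM in 4T1. Dusp1 and Fosb rose by 1.09 and 1.00 (adjusted p = 1.9e-05 and 0.00029), also in 7 of 7 libraries. Among the 16 immediate STAT3 targets 4 were higher and 0 lower, with Junb by 0.88 (adjusted p = 9.3e-05), Zfp36, which destabilises cytokine mRNAs, by 1.23 (adjusted p = 0.00029) and Irf1 by 1.07 (adjusted p = 0.0033). Zfp36 and Junb were also, with Fos, the genes most like Socs3 by r above. The summed immediate early list was higher in cells with a Socs3 UMI in every library, with the smallest ratio in PyMT B (1340 against 1159 CPM) and the largest in BRCA1-null A (4553 against 1141 CPM). Its part in the Cebpd difference and in those of the STAT3 targets was not tested.

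Il6 was called higher with Socs3 (1.47, adjusted p = 0.0017), but it was higher in 2 of 7 libraries, and nearly all of its UMIs were in BRCA1-null B, at 313 against 101 CPM. In that library the fibroblast list was also higher in cells with a Socs3 UMI, at 2656 against 1660 CPM, the pericyte list, at 1008 against 295 CPM, and the immune list, at 309 against 85.3 CPM. In Neu A the fibroblast list was at 156 against 2.33 CPM and in PyMT B at 184 against 5.70 CPM. Of 10 milk genes 3 (Lalba, Csn1s1 and Csn3, at log2 -0.50, -0.34 and -0.17, adjusted p = 0.0265, 0.0362 and 0.0477) were lower and 0 higher, and with DESeq2 size factors in place of TMM 0 were called, with the same sign (-0.38, -0.23 and -0.07, adjusted p = 0.238, 0.493 and 0.946), so the calls rest on the scaling. The same change of scaling moved the calls over all genes from 61 higher and 19 lower to 73 and 7. Of the lists of acute phase genes, NF-kB genes, receptors and kinases, negative regulators and other C/EBP factors, 0 genes were called by edgeR in either direction, with medians from -0.11 to 0.11 (6 of 18, 2 of 10, 1 of 9, 2 of 8 and 0 of 4 had an unadjusted p under 0.05).

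**Figure D4:**
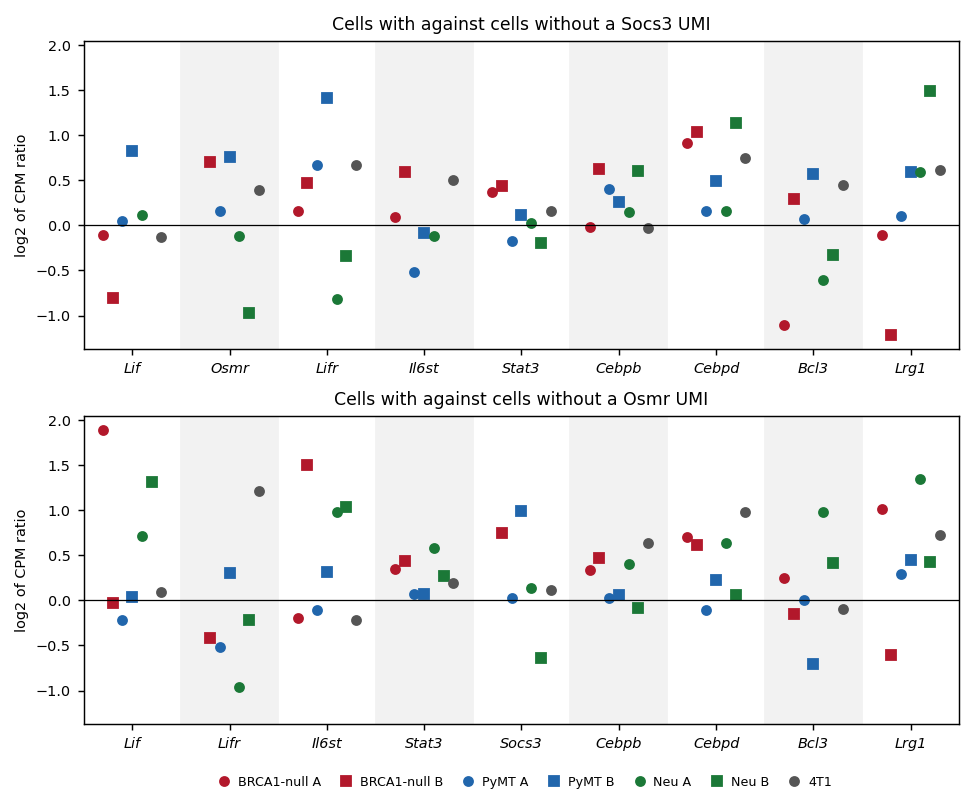
Log2 of the CPM ratio between cells with and cells without a Socs3 UMI (upper panel) and an Osmr UMI (lower panel) for the other 9 genes, with 1 point per library; ratios with 0 UMIs on a side are not drawn. In the upper panel all 7 Cebpd points lie above 0, and in the lower panel the Lrg1 points run from -0.61 in BRCA1-null B to 1.34 in Neu A.

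Cells with an Osmr UMI, the receptor of oncostatin M, were 6.31% and 11.4% of BRCA1-null, 16.1% and 11.1% of PyMT, 14.8% and 11.8% of Neu and 14.7% of 4T1 cells, with only 14 such cells in BRCA1-null A. Before thinning these held a median of 30614.5 UMIs in BRCA1-null A, against 19671.5 in cells without. In every other library the median was lower with Osmr, as in BRCA1-null B (10373 against 13124). The part of this difference was not tested. Of the 9 other members 2, Cebpd and Lrg1, were higher and 0 lower (edgeR, 9176 genes), where 0.883% of all genes tested were higher and 1.47% lower. Cebpd with and without an Osmr UMI was at 357 and 220 CPM in BRCA1-null A, 1108 and 722 CPM in BRCA1-null B, 685 and 740 CPM in PyMT A, 543 and 464 CPM in PyMT B, 1065 and 686 CPM in Neu A, 368 and 353 CPM in Neu B and 231 and 118 CPM in 4T1. It was higher in 6 of 7 libraries, by 0.33 (log2, SE 0.086, adjusted p = 0.0275). Both calls were fragile: with another random thinning Cebpd had adjusted p = 0.0524 and Lrg1 0.264, without Neu A 0.107 and 0.355, without 4T1 Cebpd 0.0964, without PyMT A or PyMT B Lrg1 0.0536 and 0.0855, and DESeq2 called 0 of the 9 (5 at an unadjusted p under 0.05; Cebpd adjusted p = 0.0969, none given for Lrg1), with 4 genes higher and 4 lower over all genes.

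Lrg1 with and without an Osmr UMI was at 71.4 and 35.3 CPM in BRCA1-null A (3 UMIs against 22), 32.3 and 49.1 CPM in BRCA1-null B, 250 and 204 CPM in PyMT A, 305 and 223 CPM in PyMT B, 164 and 64.7 CPM in Neu A, 68.1 and 50.6 CPM in Neu B and 5.38 and 3.25 CPM in 4T1. It was higher in 6 of 7 libraries and by 0.46 overall (log2, SE 0.12, adjusted p = 0.0250). The size differed between models in the test of the split by model (edgeR F-test over 6 libraries, adjusted p = 0.0294; 0.524% of 8780 genes were called): it was 0.94 in Neu (adjusted p = 7.0e-06), 0.33 in PyMT and -0.48 in BRCA1-null (adjusted p = 1 and 0.612). Without BRCA1-null B, Neu A, PyMT A or PyMT B the difference between models had adjusted p = 0.162, 1, 0.320 and 0.286, and in BRCA1-null the value was 0.68 without library B and 0.25 with full counts.

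**Figure D5:**
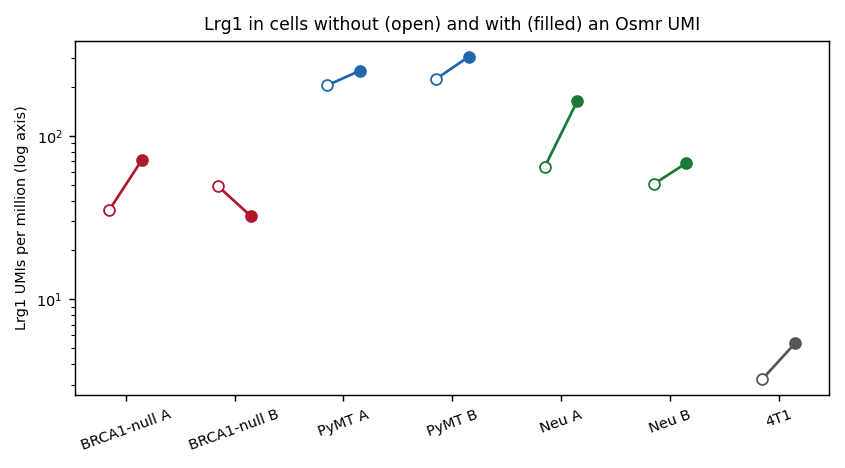
Lrg1 level (CPM, log axis, cells thinned to 3000 UMIs) in cells without (open circles) and with (filled circles) an Osmr UMI in each library, joined by a line. The line falls in BRCA1-null B, from 49.1 to 32.3, and rises in the other 6 libraries, most steeply in Neu A, from 64.7 to 164.

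Within single models, 1 further member was higher with Osmr in each of Neu and BRCA1-null. In Neu, where 0.706% of genes were higher, Bcl3 rose with Lrg1, from 53.9 to 106 CPM in Neu A and from 49.9 to 66.7 CPM in Neu B (0.69 on the log2 scale, SE 0.18, adjusted p = 0.0171). The study had named Bcl3 and Osmr together in Neu cells of these samples, so this is not independent evidence. The size in Neu depended on the library: Bcl3 was at 0.26 without Neu A and 0.95 without Neu B. Lrg1 was at 0.27 without Neu A and 1.31 without Neu B. In Neu A the fibroblast list was also higher with Osmr, at 109 against 2.45 CPM, whereas in Neu B it was at 2.90 against 6.21 CPM, and its part in the Lrg1 and Bcl3 differences was not tested. In BRCA1-null, where 1.85% were higher, Il6st rose by 1.24 (SE 0.32, adjusted p = 0.0066), from 20.6 to 58.4 CPM in BRCA1-null B but at 54.5 and 47.6 CPM in BRCA1-null A, where 2 UMIs lay in cells with Osmr, and Cebpd rose by 0.58 (adjusted p = 0.0031). Marker lists moved with this split too: with and without Osmr the epithelial list was at 286 and 1870 CPM in BRCA1-null A and 5186 and 7567 CPM in BRCA1-null B, and in library B the fibroblast list was at 2975 and 1723 CPM, the pericyte list at 704 and 408 CPM and the immune list at 13.8 and 146 CPM. Their part was not tested. With the Socs3 split in BRCA1-null, where 0.989% of genes were higher, Cebpd rose by 1.00 (SE 0.15, adjusted p = 0.00024), against 0.25 and 0.48 in PyMT and Neu (adjusted p = 1 and 0.293). The epithelial list was at 4496 CPM with and 8022 CPM without Socs3 in BRCA1-null B, at 2454 and 1587 CPM in BRCA1-null A, and its part was not tested. For Bcl3, Il6st and Cebpd with Osmr and for Cebpd with Socs3 the difference between models itself did not pass (adjusted p = 0.240, 0.571, 0.277 and 0.309). For Lrg1 the Socs3 split gave 0.84 in Neu, 0.28 in PyMT and -1.05 in BRCA1-null, and that difference between models had adjusted p = 0.0729.

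Of 18 acute phase and involution genes 4 (7 with DESeq2 size factors) were higher and 0 lower with Osmr, with a median of 0.18 beside -0.06 for all genes. Cd14, a co-receptor for bacterial lipopolysaccharide that the study also named in Neu cells of these samples, was higher in 6 of 7 libraries, by 0.41 (adjusted p = 0.0056), Pik3r1 in 6 by 0.40 (adjusted p = 0.0164) and Saa2 in 5 by 1.41 (adjusted p = 0.0235). The Saa2 value rests on PyMT B (65.3 against 6.90 CPM) and 4T1 (44.4 against 0.696 CPM), and in BRCA1-null A and PyMT A Saa2 was lower with Osmr. Nfkbiz, an inducible partner of NF-kB, was higher in 7 of 7 libraries by 0.44 (adjusted p = 0.0176), the 1 of 10 NF-kB genes called, and Icam1 in 5 of 7 by 0.60 (adjusted p = 0.0027), the 1 of 16 immediate STAT3 targets. Il6 was again called (2.09, adjusted p = 3.3e-07) on BRCA1-null B, at 487 against 101 CPM. Of 10 milk genes 5 were lower and 0 higher, with a median of -0.40, and the 3 named by rule, Csn1s2a, Csn1s1 and Csn2, fell (-0.73, -0.55 and -0.97, adjusted p = 3.3e-07, 1.5e-05 and 1.5e-05) in 7 of 7 libraries. With DESeq2 size factors 5 were lower as well. Some of these values rest on few counts: in BRCA1-null A the side with Osmr held 14 cells, with Csn2 at 0 CPM. Csn2 with Osmr was at 1.12 CPM in PyMT A and 2.69 CPM in 4T1. Unlike the Socs3 split, 0 of 9 immediate early genes were higher and 1, Fos, was lower (-0.40, adjusted p = 0.0131); that contrast between the 2 splits was not tested. Of the receptors and kinases, negative regulators and other C/EBP factors 0 were called by edgeR (0 of 9, 3 of 8 and 0 of 4 had an unadjusted p under 0.05). Over all genes 81 were higher and 135 lower, and with DESeq2 size factors 118 and 67.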

How the data were processed

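Cells were counted in 7 10x Genomics 3′ libraries. The authors deposited unnormalised UMI counts for each gene in each barcode, made with Cell Ranger on mm10; the processing notes name version 2.2.0 for libraries A and 4T1 and 3.0.2 for libraries B, while every matrix header names 3.0.2. The STAR version was not found in these sources. A matrix that pools the 7 libraries was not used. Doublets were not called, and no clusters were made.

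Groups were taken from the sample labels. Library sums over the cells kept were tested with edgeR 4.0.16 (TMM, filterByExpr, 6 libraries, 3 residual degrees of freedom). For shares, correlations and splits, cells were thinned to 3000 UMIs with a fixed seed, which left out 23 to 233 cells per library, and each side of a split held at least 10 cells. SE is the log2 fold change divided by the root of F. edgeR borrows spread across genes, and both sums of a split come from 1 tumor. Tumors of a model were separate samples, but p-values measure only the spread between these libraries. The fits were tested on simulated data. Alternatives were DESeq2 1.42.0, its size factors, other cell filters, other thinnings, a replicate block and leaving out each library.

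The study sequenced replicates in a second batch, which the letters A and B follow; differences between B and A correlated between models over 13950 genes at r = 0.062, 0.114 and 0.170. The 118 barcode sequences found in more than 1 library were kept.

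The 10 members and the gene lists were chosen with earlier results of these data known. Named genes were the members, up to 3 genes per list and comparison with the smallest adjusted p under 0.05, and the 3 genes most like each member. One listed gene, and the counts of its list for BRCA1-null against the other models, are not reported here.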

Additional observations from a re-analysis of the deposited data

Results flagged for a closer look

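The difference of Lrg1 between cells with and without an Osmr UMI was the 1 value of the 18 tested that differed between models (adjusted p = 0.0294), with 0.94 in Neu, 0.33 in PyMT and -0.48 in BRCA1-null on the log2 scale. Both Neu and both PyMT libraries went up, whereas in BRCA1-null library A went up on 3 UMIs and library B went down. The same test was past 0.05 with DESeq2 size factors (0.0180), without the low-count filter (0.0070), with another random thinning (0.0043) and with the study's cell filter (0.0361). In cells with epithelial markers (0.00026) BRCA1-null A had too few cells and was left out, so that BRCA1-null was library B alone there. With full counts the test did not pass (0.576) and BRCA1-null was no longer below 0 (0.25, with 0.22 in PyMT and 0.76 in Neu). At 2000 UMIs it did not pass either (0.883), and Neu was at 0.037, PyMT at 0.17 and BRCA1-null at -1.16.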

How the results depend on the processing

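Of 98 recounts of the members called, 56 stayed within 1.5 times the count reported and 42 did not; of 688 refits of single members, 578 kept direction and side of the threshold, 32 gained a call, 21 lost one and 57 changed sign, and of 450 recomputed mean r 430 moved by less than the spread between libraries. The causes were not tested. Members called in BRCA1-null against Neu were 3 with DESeq2, 4 without the low-count filter, 1 with the replicate block, 1 with the study's cell filter and 2 with thinned cells, and 0 to 2 when 1 library was left out. Against PyMT they were 3, 4, 2 (block) and 3 (thinned), and 0 to 4 with a library left out; in PyMT against Neu they were 0 to 3. With the block, Socs3 was the member gained in both comparisons. For the Osmr split they were 0 with DESeq2 and at 2000 UMIs, 1 with another seed, 4 with full counts and 0 to 2 with a library left out, and for the Socs3 split 0 with full counts. Members whose split differed between models, all chosen after seeing the data, were 1 for Socs3 with size factors, in epithelial marker cells, without the filter, with the study's filter and at 2000 UMIs (0 to 2 with a library left out), and for Osmr 4 in epithelial marker cells, where BRCA1-null A had too few cells, and 0 with full counts and at 2000 UMIs (0 to 4).

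Changes of sign were all of members not called, on the log2 scale. In BRCA1-null against Neu, Lifr was 0.42 with thinned cells and Cebpb -0.16 with the block. Against PyMT, Stat3 was 0.21 and Bcl3 0.29 with thinned cells, Cebpb -0.20 and Bcl3 0.0081 with the block, and Bcl3 0.0047 in epithelial marker cells and 0.0073 with the study's filter. In PyMT against Neu Cebpb was 0.036 with the block. In the Osmr split Lif was 0.015 with DESeq2 and 0.043 with full counts, Lifr 0.19 with another seed, and Socs3 -0.082 with DESeq2, -0.051 with another seed and -0.0075 at 2000 UMIs. In the Socs3 split Lif was 0.015 with DESeq2 and 0.010 with size factors, Osmr -0.075 at 2000 UMIs, Il6st -0.27 with another seed, -0.025 with full counts and -0.23 at 2000 UMIs, Stat3 -0.052 without the filter, Lrg1 -0.019 with another seed, and Bcl3 0.030 with DESeq2, 0.054 with size factors, 0.24 with another seed, 0.045 with full counts and 0.042 at 2000 UMIs.

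Leaving out 1 library at a time gave, in BRCA1-null against Neu, Lifr -0.27 to 0.15, Cebpb -1.78 to 1.13 and Cebpd -1.68 to 0.31; against PyMT Il6st -0.33 to 0.47, Cebpb -1.79 to 0.97 and Bcl3 -0.48 to 0.40; and in PyMT against Neu Osmr -0.085 to 0.41, Socs3 -0.65 to 1.43 and Cebpb -0.88 to 0.99. In the Osmr split it gave Lif -0.10 to 0.028, Socs3 -0.015 to 0.27 and Bcl3 -0.073 to 0.32, and in the Socs3 split Lif -0.26 to 0.095, Il6st -0.049 to 0.19, Stat3 -0.013 to 0.087 and Bcl3 -0.10 to 0.12. The size of difference that these libraries could show was not measured.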
